A study of Mus musculus with 20 samples.

Results

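Follicular regulatory T (TFR) cells of immunised peripheral lymph nodes (pLN) were compared with the follicular helper T (TFH) cells of such nodes. The comparison used 6 of the 20 arrays of the series, taken by the cell type and tissue in the labels: 3 of pLN TFR cells and 3 of pLN TFH cells. All cells came from B6.Cg-Foxp3<tm1Mal> mice, in which GFP reports Foxp3, aged 8 to 14 weeks and of both sexes. The mice had been immunised subcutaneously with keyhole limpet hemocyanin in alum, and the nodes of 8 to 15 mice were pooled for each sort. TFR cells were CD4+ B220- GFP+ PD1hi cells taken whether or not they carried the GL7 epitope (GL7+/-), and TFH cells were CD4+ B220- GFP- PD1hi cells that carried it (GL7+). On day 12 (d12) there were 2 arrays of each cell type, on slides 1 and 2, and on day 25 (d25) there was 1 of each, on slide 3. Each slide thus held a TFR and a TFH array of the same day, beside naive T cells (GFP- PD1- GL7-) and Treg cells (GFP+ PD1- GL7-) of that day. The labels do not say whether the arrays of a slide came from the same sort. Because all TFH cells and only some TFR cells were GL7+, cell type and GL7 cannot be told apart in these arrays.

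TFH cells give help to germinal centre B cells, with the transcription factor Bcl6 at the centre of their programme, CXCR5 to bring them into the follicle, and IL-21 and IL-4 as their main secreted signals. TFR cells descend mostly from Foxp3+ Treg cells, enter the same follicles and restrain the germinal centre response. They therefore join parts of the Treg programme, such as Foxp3 and the high-affinity IL-2 receptor chain CD25, with parts of the follicular programme. IL-2 signals through STAT5 to Blimp-1, the product of Prdm1, which opposes Bcl6.

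Values below are normalised intensities on a linear scale with a floor of 20, given in the order of slides 1, 2 and 3 (d12, d12, d25). Differences are TFR minus TFH on the log2 scale, with the standard error (SE) of limma's fit with slide as a block, n = 3 arrays a side. Probes with an adjusted p under 0.05 whose difference was at least 1 in size are referred to as called. Between 45.2% and 54.8% of probes were detected on the 6 arrays, so levels near the floor were not resolved.

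The sorted fractions carried the transcripts of CD4 T cells: all 10 genes of a CD4 T cell list, among them Cd3e, Cd4 and Lck, were detected on all 6 arrays. The TFH array of slide 1 stood apart from the others in transcripts of B cells, plasma cells and follicular stroma. On it the tested B cell markers summed to 61293, against 14852 and 13754 on the other TFH arrays and 11948 to 17782 on the TFR arrays. Of 15 B cell markers, 14 had a probe and 9 were tested, and 1 (Cd22) was called lower in TFR cells. Blnk, an adaptor of B cell receptor signalling, read 4474, 457 and 351 on the TFH arrays and 592, 251 and 213 on the TFR arrays. Cd79b, a chain of the B cell receptor complex, ran the other way on slides 2 and 3, with 9060, 1651 and 1565 on the TFH arrays and 5436, 5101 and 5636 on the TFR arrays. Without the TFH array of slide 1 it was called higher in TFR cells (1.72), so that 1 B cell marker was called in each direction. Clu, a follicular dendritic cell product, read 8345, 441 and 280 on the TFH arrays and 575, 209 and 412 on the TFR arrays. Of 4 plasma cell markers 2 were tested and 0 called, with summed levels of 2171 to 85250 in TFH and 1333 to 12357 in TFR cells. The tested stromal and endothelial markers summed to 14311 on the slide 1 TFH array and 2269 to 3556 on the other 5, with 1 of 6 called higher in TFR cells (Col1a2) and 1 lower (Pecam1). Without the slide 1 TFH array 2 of the 6 were higher (Madcam1 being added) and 0 lower, with Pecam1 at -0.91. Of the markers of other lineages, 1 of 9 myeloid (Cd68), 2 of 7 CD8 T and NK (Gzmk and Eomes) and 0 of 2 erythroid and platelet genes were called, all lower. Over all tested probes 8.95% were called and 3.88% were called lower. The B cell and myeloid lists, at 11.1% each, were near the share called, and lists this short resolve little. Of the CD4 T cell list Cd247 was called lower (-1.06), and of 3 sex-linked genes 0 were called. Changes in the calls of list members without the slide 1 TFH array are given beside each list. The TFR array of slide 2 had a local background of 268, against 40 to 78 on the other 5.

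**Figure D1:**
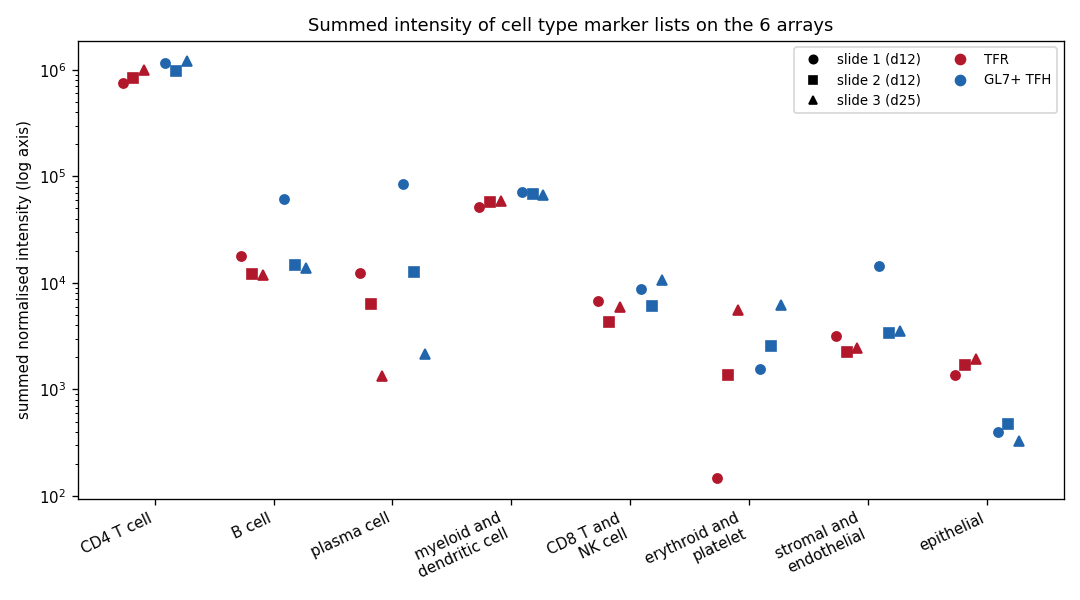
Summed normalised intensity (log axis) of the tested members of 8 cell type marker lists, a point for each of the 6 arrays (red TFR, blue GL7+ TFH, shape by slide). The B cell sum of the slide 1 TFH array, 61293, lies above the 11948 to 17782 of the other 5 arrays.

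Across the 18698 probes tested, 1673 were called (8.95%), 947 higher in TFR cells (5.06%) and 726 lower (3.88%). These belonged to 1291 named genes, of which 1 had called probes in opposite directions, while 156 called probes had no symbol. The sign of the difference was the same on all 3 slides for 1670 of the called probes, and the TFR and TFH arrays did not overlap for 1597, against 29.2% of all tested probes. A difference of at least 4 was seen for 26 probes higher and 34 lower in TFR cells. The median over all tested probes was 0.0094. In bulk sorts such as these, fewer cells with a transcript and less transcript per cell cannot be told apart. Without the TFH array of slide 1, 1523 probes were called, 1425 of them among the 1673.

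Of the 14 gene lists, the Treg identity genes had the largest share of calls: 18 of 22 were higher in TFR cells, 0 lower (81.8%, against 8.95% of all tested probes), with a median difference of 2.06. The sort split the cells by Foxp3, and the lists were chosen with earlier results of these data known. The rank of this list is thus a check of the sort rather than a result. Foxp3 itself, the reporter gene of the sort and thus a check rather than a result, read 29926, 22048 and 27484 in TFR cells and 94.8, 57.2 and 27.0 in TFH cells, where it was detected on 1 array of 3. Lrrc32, which encodes GARP, the receptor that holds latent TGF-beta on the Treg surface, read 15150, 18655 and 21390 in TFR cells and 155, 78.8 and 84.8 in TFH cells. The groups lay far apart on every slide, and the difference was 7.49 ± 0.25 (adjusted p = 5.2e-09). Its probe lies on chromosome 7 at 105650282 to 105650341 (mm9).

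Il2ra, which encodes CD25, read 17697, 14256 and 18068 in TFR cells against 743, 760 and 537 in TFH cells. No TFR array came near any TFH array, and the difference was 4.63 ± 0.25 (adjusted p = 1.48e-07). Itgae, the CD103 integrin chain of tissue-seeking T cells, read 4444, 3610 and 5417 against 98.9, 87.7 and 168, a difference of 5.29 ± 0.40. Ikzf4, which encodes Eos, a partner of Foxp3 in gene repression, read 17990, 17387 and 21940 against 465, 498 and 723, and its 2 probes gave 5.11 and 5.09. Entpd1, the CD39 enzyme that removes extracellular ATP, differed by 3.69, and Tnfrsf4 (OX40) and Tnfrsf18 (GITR), both costimulatory receptors, by 1.73 and 1.63.

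4 members of the list were not called. Ctla4, the inhibitory receptor that Treg cells use to strip costimulatory ligands, read 11537, 12845 and 16444 in TFR cells and 13787, 6589 and 6963 in TFH cells. The groups overlapped at the TFH array of slide 1, and the difference was 0.65 ± 0.34 (adjusted p = 0.156). Without that array it was 1.04 and called. Nt5e (CD73), Plagl1 and Izumo1r (folate receptor 4) lay between 0.12 and 0.46. Ikzf2, which encodes Helios, was called at a smaller size, with 9676, 15646 and 22392 in TFR cells and 5878, 6093 and 6497 in TFH cells (difference 1.29 ± 0.29, adjusted p = 0.00446).

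**Figure D2:**
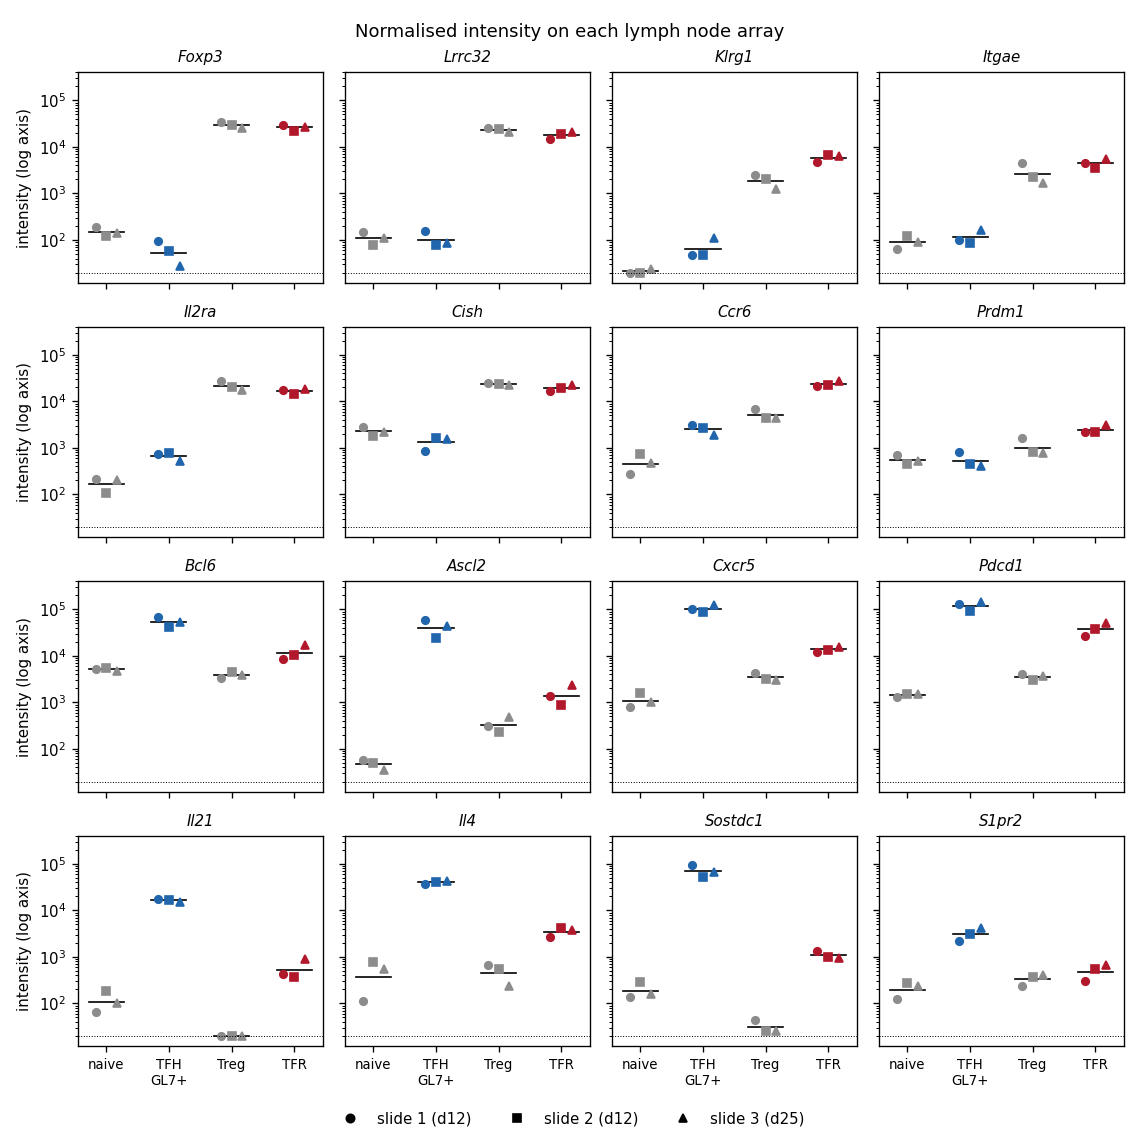
Normalised intensity (log axis, dotted line at the floor of 20) of 16 genes on the 12 lymph node arrays, by cell type and slide, with the geometric mean of 3 arrays as a bar. The top 8 genes were called higher in TFR than in TFH cells and the lower 8 were called lower, and for Bcl6, Ascl2, Cxcr5, Pdcd1, Il21, Il4 and Sostdc1 all TFR arrays lie between the TFH and the Treg arrays.

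The genes of effector Treg cells, the activated subset that works in tissues, were higher in TFR cells for 12 of 23 tested members and lower for 0 (52.2%, median 1.45). Klrg1, a receptor of late effector cells, read 4710, 6739 and 6271 in TFR and 48.8, 47.4 and 110 in TFH cells, a difference of 6.53 ± 0.39 (adjusted p = 3.35e-07). Il1rl1, the IL-33 receptor chain ST2, differed by 4.63 ± 0.41. Gzmb, the cytotoxic protease granzyme B, read 3978, 8170 and 3017 against 434, 482 and 167. For these 3 genes every TFR array lay above every TFH array. The cytokine subunit Ebi3 and the epidermal growth factor family ligand Areg, which Treg cells use in tissue repair, differed by 2.10 and 1.66.

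Il10, the suppressive cytokine of effector Treg cells, was the least even of the called members. It read 1671, 2305 and 4382 in TFR cells and 1358, 582 and 125 in TFH cells, so that the within-slide differences were 0.30, 1.99 and 5.13. The mean was 2.47 ± 0.71 (adjusted p = 0.0175), and it fell to 1.14 and was no longer called without slide 3. Of the 11 members not called, Lag3, an inhibitory receptor, had the lowest difference at -0.98, and Tgfb1 read 0.93. Without the TFH array of slide 1 Lgals1, which encodes galectin-1, was called as well (1.06, against 0.86). Gata3, the Th2 factor that also supports Treg cells, differed by 0.58.

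Of the transcription factors that promote TFH cells, 7 of 15 tested were lower in TFR cells and 0 higher (46.7%, median -0.62). Bcl6 read 8794, 10254 and 16807 in TFR cells and 70322, 42692 and 54741 in TFH cells, a difference of -2.25 ± 0.23 (adjusted p = 1.6e-05). TFR cells held more than the 3431, 4429 and 3964 of Treg cells on every slide and less than TFH cells on every slide. Its probe lies on chromosome 16 at 23965160 to 23965219 (mm9). Ascl2, a basic helix-loop-helix factor that turns on Cxcr5, read 1351, 864 and 2338 against 59656, 24717 and 43331 and differed by -4.84 ± 0.31 (adjusted p = 4.75e-07), the largest size in the list.

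Pou2af1, the octamer coactivator OBF-1, read 5962, 6104 and 7229 in TFR cells and 60416, 36567 and 63732 in TFH cells (difference -3.02). Pou2af1 is also a B cell gene. Its within-slide differences were -3.34, -2.58 and -3.14 on slides 1, 2 and 3, where the B cell markers of the TFH arrays summed to 61293, 14852 and 13754, and the part of B cell transcripts in the difference was not tested. Tox2, a partner of Bcl6, read 366, 274 and 181 against 1722, 1051 and 836, and Tcf7, which encodes TCF-1, read 23078, 27766 and 32282 against 64499, 85685 and 81648. Neither pair overlapped, with differences of -2.13 ± 0.18 and -1.48 ± 0.12. Hif1a, the oxygen-sensing factor, differed by -1.63. Maf was called at -1.22 ± 0.38 (adjusted p = 0.0262) but at -0.92 it was not called without the TFH array of slide 1. Batf, Irf4, Stat3, Lef1, Tox and Nfatc1, all needed at some step of TFH differentiation, lay between -0.36 and 0.37 and were not called.

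Among the factors of other T cell fates, or known to oppose TFH cells, 4 of 15 were higher in TFR cells and 2 lower (40%, against 8.95% of all tested probes, median 0.30). Prdm1 read 2242, 2223 and 3056 in TFR cells and 820, 450 and 407 in TFH cells, a difference of 2.22 ± 0.25 (adjusted p = 4.49e-05). Klf2, a factor of naive cells that drives S1pr1, read 37163, 27297 and 14466 against 5952, 12611 and 7579. The Klf2 difference was 1.56 ± 0.35, and without slide 1 it was 1.02 and not called. Bach2, a repressor of effector differentiation, and Runx3, a factor of cytotoxic cells, were higher by 1.28 and 1.71. Eomes, the T-box factor of memory and cytotoxic cells, was lower, at 220, 151 and 187 in TFR and 425, 1009 and 1542 in TFH cells, and Ikzf3, which encodes Aiolos, was lower by a difference of -1.53. Tbx21, the Th1 factor T-bet, overlapped between the groups and was not called (0.64 ± 0.37, adjusted p = 0.207).

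**Figure D3:**
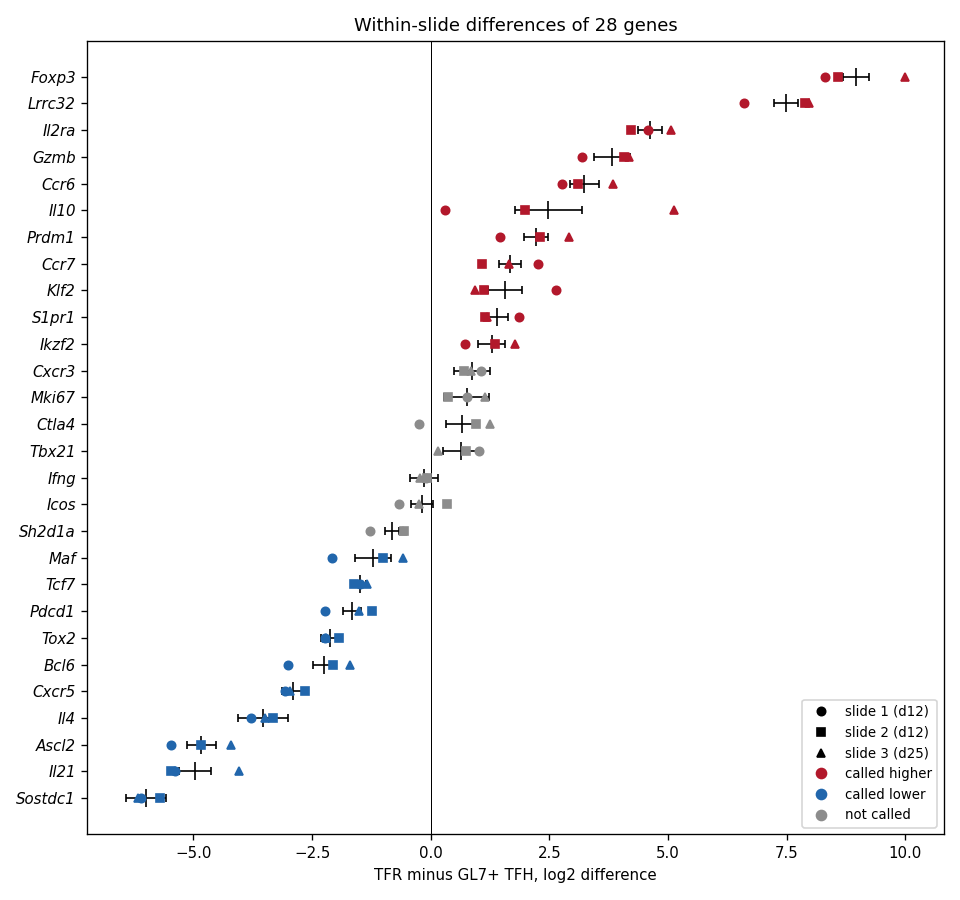
Within-slide TFR minus GL7+ TFH differences (log2) of 28 genes, a symbol for each slide, with limma's mean and SE in black and the colour giving the call. Il10 spreads from 0.30 to 5.13, while the 3 slides of Sostdc1 lie between -6.16 and -5.71.

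The sequence before the start site is shown for 5 genes that take opposite sides in this comparison, Il2ra and Prdm1 (higher in TFR cells) and Bcl6, Ascl2 and Il21 (lower). The 250 bases before each start come from the RefSeq promoter table (GRCm38.p6), 5′ to 3′ on the gene's strand, from the most upstream start listed. Capitals mark TTCNNNGAA, the pair of half-sites that STAT factors bind, or the E-boxes CACCTG and CAGCTG, on either strand. Bcl6 lies on the minus strand at chr16:23988853-23989102, Ascl2 on the minus strand at chr7:142969265-142969514, Il21 on the minus strand at chr3:37232637-37232886, Prdm1 on the minus strand at chr10:44458749-44458998 and Il2ra on the plus strand at chr2:11642542-11642791.
Il2ra: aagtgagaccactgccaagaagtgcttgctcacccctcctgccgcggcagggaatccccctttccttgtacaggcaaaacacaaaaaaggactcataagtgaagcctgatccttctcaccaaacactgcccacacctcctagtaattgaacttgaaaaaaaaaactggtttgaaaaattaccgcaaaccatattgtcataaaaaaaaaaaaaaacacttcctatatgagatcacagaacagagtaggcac
Prdm1: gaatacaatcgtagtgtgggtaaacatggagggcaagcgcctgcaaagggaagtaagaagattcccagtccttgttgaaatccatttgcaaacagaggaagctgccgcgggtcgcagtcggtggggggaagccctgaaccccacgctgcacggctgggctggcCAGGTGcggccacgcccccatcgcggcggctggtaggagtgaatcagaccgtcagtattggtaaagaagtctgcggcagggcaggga
Bcl6: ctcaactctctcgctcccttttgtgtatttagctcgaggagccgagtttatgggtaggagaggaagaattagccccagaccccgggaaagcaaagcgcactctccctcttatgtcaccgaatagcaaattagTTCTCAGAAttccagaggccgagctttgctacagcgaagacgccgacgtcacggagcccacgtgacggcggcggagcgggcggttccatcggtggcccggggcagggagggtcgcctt
Ascl2: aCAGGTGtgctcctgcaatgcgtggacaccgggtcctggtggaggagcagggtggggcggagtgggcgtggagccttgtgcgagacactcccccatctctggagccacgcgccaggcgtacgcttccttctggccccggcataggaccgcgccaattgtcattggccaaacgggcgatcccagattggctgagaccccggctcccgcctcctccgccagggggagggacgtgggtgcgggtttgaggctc
Il21: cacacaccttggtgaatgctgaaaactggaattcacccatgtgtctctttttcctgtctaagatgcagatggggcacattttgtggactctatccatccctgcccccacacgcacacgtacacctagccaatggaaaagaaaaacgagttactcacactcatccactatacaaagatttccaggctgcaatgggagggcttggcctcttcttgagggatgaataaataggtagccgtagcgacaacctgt

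The Bcl6 window held 1 TTCNNNGAA, starting 118 bases before the start site. Prdm1 and Ascl2 each held 1 CACCTG, read as CAGGTG on the strand shown, starting 87 and 249 bases before the start. The windows of Il2ra and Il21 held none of these letters. Over all 32851 windows of the table, 7.02% held TTCNNNGAA, 17.2% held CACCTG and 13.0% held CAGCTG. By gene, TTCNNNGAA stood in a window of 9.34% of the 578 genes called higher in TFR cells, 4.07% of the 393 called lower and 7.28% of the 9415 tested genes that have a window. CACCTG stood in 22.5%, 26.2% and 18.5% of the same groups, and CAGCTG in 19.4%, 20.6% and 13.9%. These shares describe the letters in the windows and were not tested.

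Of 21 TFH surface receptors and their adaptor SAP, 8 were lower in TFR cells and 1 higher (42.9%, median -0.71). Cxcr5, the receptor for the follicle chemokine CXCL13, read 12125, 13683 and 15655 in TFR cells and 101941, 86197 and 122913 in TFH cells, a difference of -2.90 ± 0.23 (adjusted p = 2.73e-06). The TFR arrays lay above the 4260, 3233 and 3071 of Treg cells. Pdcd1, which encodes the sorted marker PD-1, read 27456, 38287 and 51386 against 127880, 90409 and 147254, so that cells inside the same PD1hi label differed by -1.66 ± 0.19. Il1r1, the receptor for IL-1, read 323, 146 and 79.4 against 5720, 3308 and 2691 and had the largest difference, -4.58 ± 0.39 (adjusted p = 4.58e-06).

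S1pr2, which confines cells to the germinal centre, read 298, 548 and 686 in TFR cells and 2229, 3065 and 4123 in TFH cells, beside 232, 378 and 411 in Treg cells. Tnfsf8 (CD30 ligand) and Cd40lg (CD40 ligand), both signals to B cells, differed by -2.67 ± 0.13 and -1.50. Btla, an inhibitory receptor, and P2rx7, the ATP receptor that limits TFH numbers, differed by -1.30 and -1.33. Icos, the costimulator that TFH cells need to stay in the follicle, read 101941, 76855 and 82125 against 161858, 60759 and 97187. Its groups overlapped, and the difference of -0.19 ± 0.23 had an adjusted p of 0.545. Sh2d1a, which encodes SAP, was lower on all slides, at -0.82 ± 0.14 (adjusted p = 0.000928), but below the size set for a call. Il4ra, the IL-4 receptor, was the member higher in TFR cells, by 1.78.

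The main secreted signals of TFH cells were lower in TFR cells. Of 21 cytokine and secreted factor genes tested, 5 were lower in TFR cells and 3 higher (38.1%), and 7 others, among them Il17a and Il5, were not detected on all arrays of any lymph node cell type and were not tested. Il21, the main TFH cytokine, read 429, 373 and 914 in TFR cells and 17879, 16636 and 15019 in TFH cells, a difference of -4.97 ± 0.34 (adjusted p = 7.59e-07). Il4, which directs class switching, read 2697, 4169 and 3715 against 37251, 41531 and 41849 (-3.53 ± 0.52), and Il2 read 111, 160 and 155 against 1186, 2213 and 1500 (-3.50 ± 0.53). No array of the 2 cell types overlapped for any of these 3 cytokines.

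Sostdc1, a secreted antagonist of BMP and Wnt signals, had the largest difference of all called genes lower in TFR cells. Its probe on chromosome 12 at 37044197 to 37044256 (mm9) read 1341, 987 and 952 in TFR cells and 92855, 51480 and 68233 in TFH cells. The difference was -5.99 ± 0.42 (adjusted p = 1.02e-06) and -5.96 at another probe. Ccl3, an inflammatory chemokine, was lower by -1.63. Higher in TFR cells were Penk, the enkephalin precursor (2.85), Il10, described above, and Lta, lymphotoxin alpha (1.02). Lta was not called without the TFH array of slide 1 (0.98), and Fasl, the death ligand, was called lower without it (-1.06), so that 2 were higher and 6 lower. Ifng read 1154, 2458 and 3538 in TFR and 1234, 2603 and 4143 in TFH cells, and its difference of -0.14 ± 0.29 was not called (adjusted p = 0.745).

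Genes of the IL-2 receptor and its STAT5 response were higher in TFR cells for 7 of 17 members and lower for 0 (41.2%, median 0.44). Besides Il2ra and Gzmb, these included the feedback inhibitors Cish and Socs2, both direct STAT5 targets. Cish read 17175, 19756 and 22846 in TFR cells and 872, 1664 and 1581 in TFH cells, and Socs2 read 4668, 4463 and 5097 against 468, 372 and 390. Neither gene overlapped between the groups, with differences of 3.91 ± 0.30 and 3.54 ± 0.25. Il7r, the IL-7 receptor, was higher by 1.49. The beta chain gene Il2rb was just past the size of a call at 1.00. Osm lost its call (0.99) and Pim1 gained one (1.02) without the TFH array of slide 1, which left the count at 7. The chains and kinases that the pathway shares with other cytokines, Il2rg, Jak1, Jak3, Stat5a and Stat5b, lay between -0.37 and 0.30 and were not called.

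**Figure D4:**
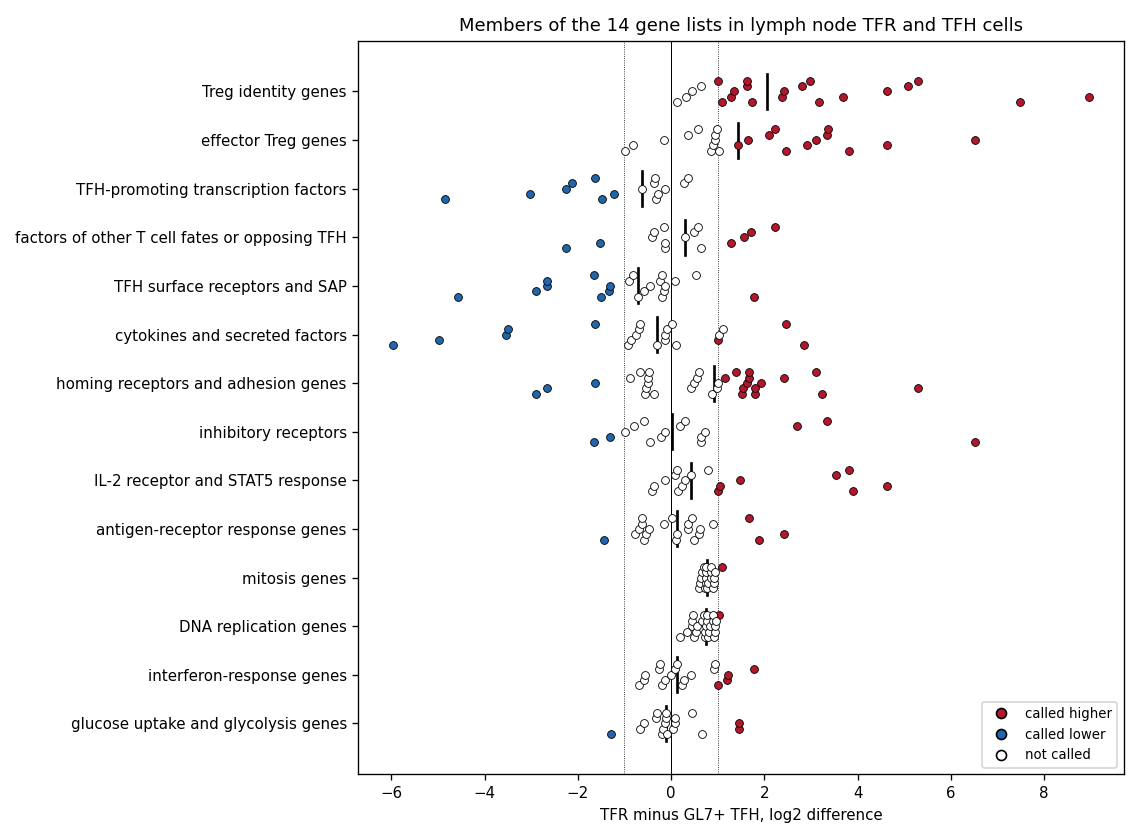
TFR minus GL7+ TFH differences (log2) of the tested members of 14 gene lists, filled red where called higher in TFR cells, blue where called lower and open where not called, with the list's median as a bar. Dotted lines mark the size set for a call, and the 20 mitosis genes all lie between 0.61 and 1.09.

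Homing receptors and adhesion genes changed in both directions: 14 of 32 were higher in TFR cells and 3 lower (53.1%, median 0.93). The 3 lower genes were Cxcr5 and S1pr2, described above, and Cxcr4, the receptor that draws cells to the dark zone of the germinal centre (-1.64). Ccr6, the receptor for CCL20, read 21209, 22846 and 26945 in TFR cells and 3107, 2665 and 1879 in TFH cells (3.24 ± 0.31, adjusted p = 1.07e-05), and Ccr8 read 2248, 1276 and 1484 against 241, 134 and 205. The inflammatory chemokine receptor gene Ccr2 was higher by 2.43.

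The T cell zone receptor Ccr7 and the exit receptor S1pr1 were also higher in TFR cells. Ccr7 read 34295, 27697 and 36476 in TFR cells, 7114, 13031 and 11615 in TFH cells and 97490, 93710 and 103238 in Treg cells. S1pr1 read 10223, 9620 and 5983, 2816, 4381 and 2613 and 39698, 37291 and 35063 in the same cells. For both, all TFR arrays lay above the TFH arrays and below the Treg arrays, with TFR minus TFH differences of 1.67 ± 0.23 and 1.40 ± 0.23. The selectin ligand genes Selplg and Fut7 were higher by 1.53 and 1.81. The integrin genes Itga4, Itga6, Itgb3 and Itgb7 were higher by 1.16 to 1.66. Without the TFH array of slide 1, 13 of the 32 were higher and 4 lower, and Gpr183, a receptor for oxysterols that guides cells in the follicle, was called lower (-1.10, against -0.88). Cxcr3, the receptor for interferon-induced chemokines, was not called at 0.87 ± 0.38 (adjusted p = 0.0949).

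Inhibitory receptors were called in both directions. Of 16, 3 were higher in TFR cells and 2 lower (31.2%, median 0.027). Besides Klrg1, the higher genes were Havcr2 (TIM-3), at 389, 694 and 422 in TFR and 46.1, 74.7 and 31.4 in TFH cells, and Lilrb4a, at 447, 772 and 840 and 149, 131 and 53.6. The lower genes were Pdcd1 and Btla. Ctla4 was called too without the TFH array of slide 1, which gave 4 higher and 2 lower. Tigit, shared by Treg and TFH cells, differed by 0.19 and was not called.

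The lists for general T cell activity had smaller shares of calls than those of Treg and TFH genes, though above the 8.95% of all tested probes. Of 22 antigen-receptor response genes, 3 were higher and 1 lower (18.2%, median 0.12), namely Tnfrsf9 (4-1BB) at 2.43, Myc at 1.89, Dusp5 at 1.67 and Dusp6 at -1.43. Nr4a1, Egr2 and Irf4, which report receptor signals, lay between -0.62 and 0.37 and were not called. Of 19 interferon-response genes tested, 4 were higher (Gbp3, Oas1a, Usp18 and Ifi44, at 1.00 to 1.77) and 0 lower (21.1%). Ifi44, at the low end, read 36.0, 173 and 245 in TFR and 20, 80.7 and 118 in TFH cells, which overlap, and without the TFH array of slide 1 it was not called (0.93), leaving 3 of 19 (15.8%). Of 18 genes of glucose uptake and glycolysis, the transporter Slc2a3 (1.46 ± 0.094) and hexokinase 2, Hk2 (1.45 ± 0.28), were higher and the phosphofructokinase Pfkp was lower (-1.30 ± 0.12). The other 15 were not called (16.7% called).

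Cell cycle genes had positive but uncalled differences. All 20 mitosis genes and all 25 DNA replication genes tested had a mean above 0, with medians of 0.77 and 0.74, but 1 of each list was called (5% and 4%, both below the 8.95% of all probes). These were Ttk at 1.09 and Uhrf1 at 1.03. Without the TFH array of slide 1 Uhrf1 was not called (0.89) and the replication list had 0 of 25 called. Mki67, the proliferation marker, read 29512, 11863 and 7226 in TFR cells and 17399, 9260 and 3256 in TFH cells. Its levels overlapped and varied by slide in both cell types, and the difference of 0.76 ± 0.48 was not called (adjusted p = 0.24).

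The genes with the largest differences included several outside these lists. Vegfc, a growth factor for lymphatic vessels, read 1180, 983 and 878 in TFR cells. It was not well above background on any TFH array (20, 24.6 and 20), with a reference fold of 19.4. A reference fold sets the mean of the brighter cells against the dimmer cells, each dimmer array set no lower than its lowest detected intensity. That intensity was 20, the floor, on the TFH array of slide 1. Undetected probes can read above it, as Pid1 did there at 35.3, so the fold is not a strict lower bound. Dscam, a cell adhesion molecule of the nervous system, read 1279, 956 and 1773 and was not well above background in TFH cells (reference fold 24.9). Gucy1a1, a subunit of the nitric oxide receptor guanylate cyclase, read 898, 2043 and 2584 against 20, 102 and 67.8. Gm4956, a predicted gene, read 8875, 7588 and 11329 against 171, 63.6 and 56.2. The dynein heavy chain gene Dnah7a read 6435, 8961 and 14572 against 97.7, 331 and 711, and since close copies of this gene exist its signal may not be its own alone.

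In the other direction, Cpeb1, which controls the translation of stored mRNA, was at the floor of 20 on all TFR arrays. It read 915, 854 and 1245 in TFH cells (reference fold 16.4). Padi4, an enzyme that converts arginine to citrulline in histones, read 126, 146 and 176 in TFR and 6818, 7009 and 6391 in TFH cells, -5.51 ± 0.27. Fst, which encodes the activin antagonist follistatin, was at 20 on all TFR arrays and read 772, 574 and 1582 in TFH cells (reference fold 14.7). Fam71b, the fibrillin gene Fbn2, the apolipoprotein gene Apoc4 and the class I gene H2-Q1 were likewise not well above background in TFR cells. Their reference folds were 12.9 to 19.4. H2-Q1 has close relatives in the same gene cluster, and its probe may not tell them apart. In all, 102 called probes were not well above background on any TFH array and 66 on any TFR array. A probe was tested if all arrays of at least 1 lymph node cell type detected it, so some entered through the brighter cells alone. These counts depend in part on that filter, and the same count was not made over all tested probes.

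The epithelial markers Epcam and Krt18 were also called higher in TFR cells, while the 4 other epithelial markers (Krt8, Krt19, Cdh1 and Vil1) were not well above background on any of the 6 arrays. Epcam read 789, 1198 and 1318 in TFR cells and 197, 244 and 143 in TFH cells, and Krt18 read 582, 500 and 628 against 204, 234 and 183. Without the TFH array of slide 1, 1 of the 2 was called.

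Levels in naive T and Treg cells place these differences. The Treg arrays share the TFR arrays with this comparison, so the values are only set side by side. Between TFR and Treg cells 13.4% of the tested probes were called, 9.01% higher and 4.39% lower in TFR cells. Foxp3, Lrrc32, Il2ra and Cish had TFR minus Treg differences of -0.19, -0.38, -0.37 and -0.24, none of them called. Klrg1, Prdm1, Ccr6 and Vegfc, all higher in TFR than in TFH cells, were also higher in TFR than in Treg cells, by 1.64, 1.28, 2.20 and 4.66. Bcl6, Cxcr5, Pdcd1, Il21, Il4 and Sostdc1, all lower in TFR than in TFH cells, were higher in TFR than in Treg cells, by 1.55, 1.98, 3.42, 4.72, 2.97 and 5.13. These genes are examples and do not stand for the whole set. Of the 726 probes called lower in TFR than in TFH cells, 157 were called higher in TFR than in Treg cells and 101 lower. Of the 947 called higher in TFR than in TFH cells, 423 were called higher than in Treg cells and 98 lower, among them Gm4956 (-2.30). Tcf7 was lower in TFR cells than in each of the other fractions, with 33821, 42396 and 38287 in Treg and 79554, 86101 and 73784 in naive T cells. Its TFR minus Treg difference of -0.47 was below the size set for a call. Cpeb1 and Fst were at 20 in naive T and Treg cells too, so that TFH cells were the fraction of the 4 in which they were detected.

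The day of the sort was compared at the precision that 1 slide of d25 allows. Of 18698 probes, 1 (0.00535%) was called for a d25 minus d12 change in the TFR minus TFH difference, with 1189 at an unadjusted p under 0.05. It was Pid1, a regulator of insulin signalling, which read 58.0, 39.0 and 108 in TFR cells and was not well above background on any TFH array (35.3, 23.3 and 20). The spread of Il10 over the slides, 0.30 and 1.99 on d12 and 5.13 on d25, was not called as a change between the days (adjusted p = 0.75).

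TFR and GL7+ TFH cells were also sorted from Peyer's patches (PP), whose labels name no immunisation, with 2 arrays of each on slides 4 and 5, none of which entered the lymph node difference. In PP 1391 of 22146 probes were called between TFR and GL7+ TFH cells (6.28%, with 4.12% higher and 2.16% lower in TFR cells), and 742 of these were called in pLN too, which is 44.4% of the pLN and 53.3% of the PP calls. The direction was the same for 731 of the 742. The difference between the tissues was called for 727 of 22146 probes (3.28%). Of these, 460 were more positive in PP (2.08%) and 267 more negative (1.21%), and 389 were among the pLN calls. The pLN difference is a part of the tissue difference, so that overlap is in part built in. Leaving out 1 PP array lowered the 727 to between 403 and 513, and the lowest and next lowest came without a TFH array.

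Several follicular genes had a called tissue difference. Foxp3, Il2ra, Cish, Itgae and Klrg1 differed by 8.66, 4.56, 3.84, 5.28 and 6.26 in PP, and none of these had a called tissue difference (adjusted p = 0.752 to 0.998). Lrrc32 differed by 6.22 in PP, and its tissue difference of -1.27 ± 0.40 was not called (adjusted p = 0.0987), but was called without quantile normalisation and without the TFR array of slide 1. Il2ra read 1191 and 3268 in PP TFR and 62.7 and 112 in PP TFH cells, all below the arrays of the same cells in pLN. Sostdc1 read 32360 and 24531 in PP TFR and 65107 and 36063 in PP TFH cells, a difference of -0.78 against -5.99 in pLN. The tissue difference was 5.21 ± 0.67 (adjusted p = 0.00142). Ascl2 read 17635 and 9858 in PP TFR and 27675 and 16893 in PP TFH cells, and Bcl6 53774 and 46063 and 72183 and 51429. Their tissue differences were 4.12 ± 0.49 (adjusted p = 0.000949) and 1.96 ± 0.36 (adjusted p = 0.0106). That of Bcl6 was not called without either PP TFH array, without the PP TFR array of slide 5 or with the compared groups only (highest adjusted p = 0.0927).

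Il21 read 4759 and 3489 in PP TFR cells and 17168 and 15163 in PP TFH cells, closer than the 429, 373 and 914 and 17879, 16636 and 15019 of pLN, with a tissue difference of 2.98 ± 0.54 (adjusted p = 0.00945). Pdcd1 read 166512 and 155321 against 174442 and 138438 in PP, and S1pr2 1104 and 1980 against 1547 and 2591, with tissue differences of 1.71 ± 0.30 and 2.22 ± 0.19. Cxcr5 kept a smaller difference in PP (-1.04), with a tissue difference of 1.86 ± 0.37 (adjusted p = 0.0161) that was not called without any 1 of the 4 PP arrays. For Il4 the tissue difference of 2.76 ± 0.84 was not called (adjusted p = 0.0872). Cpeb1 and Tnfsf8 were lower in TFR cells in both tissues, by -5.63 and -2.67 in pLN and -5.51 and -2.65 in PP.

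For interferon gamma and the receptor Cxcr3 the difference was more negative in PP. Ifng read 79.0 and 173 in PP TFR cells and 588 and 870 in PP TFH cells, against overlapping levels in pLN, and the tissue difference was -2.48 ± 0.47 (adjusted p = 0.0118). Cxcr3 read 2054 and 2751 against 8191 and 8794 in PP, a tissue difference of -2.71 ± 0.60 (adjusted p = 0.0267). The Cxcr3 call was lost under 10 of 19 alternatives, among them leaving out each of the compared PP arrays in turn. That of Ifng was lost without the TFR or the TFH array of slide 4. Ccr8 was higher in TFR cells by 4.43 in PP against 3.11 in pLN, with a tissue difference of 1.32 ± 0.21 (adjusted p = 0.00535).

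**Figure D5:**
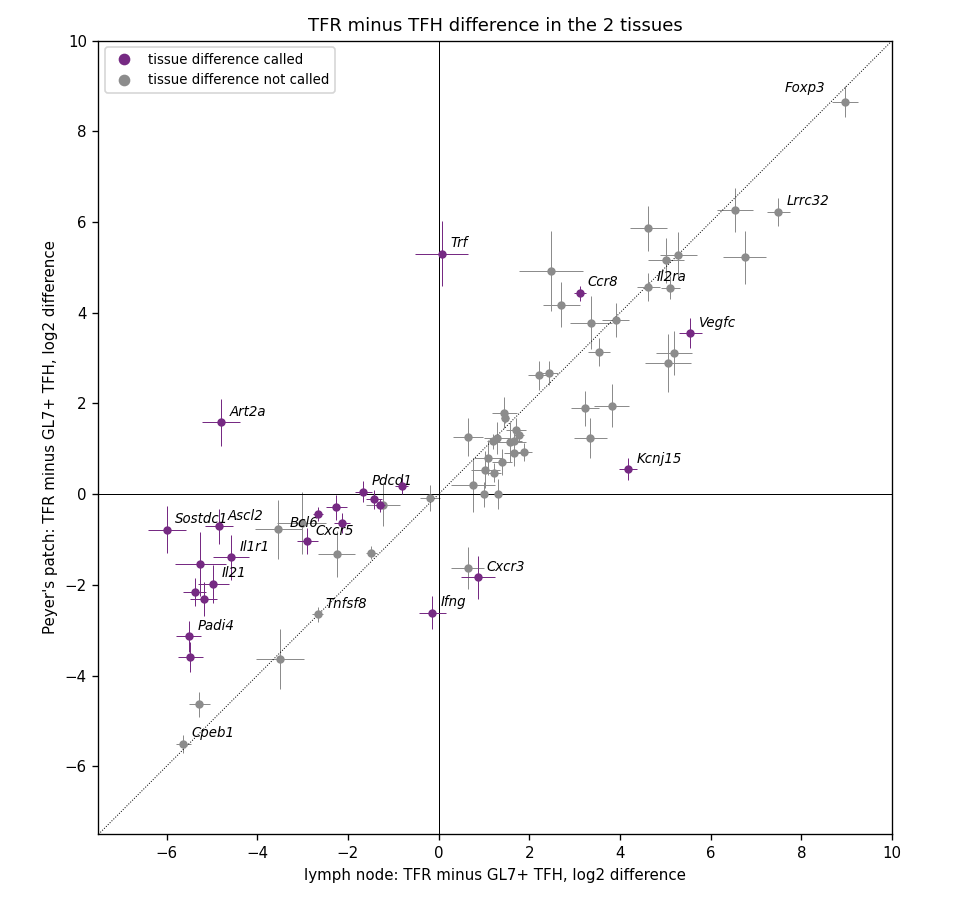
TFR minus GL7+ TFH difference (log2, with SE) in Peyer's patches against that in lymph nodes, for the genes named by rule, with a dotted line where the tissues are equal and purple points where the tissue difference was called. Foxp3 and Cpeb1 lie near the line, while Sostdc1, at -5.99 in pLN and -0.78 in PP, and Ascl2, at -4.84 and -0.71, lie above it.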

How the data were processed

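RNA of sorted CD4 T cells was amplified in 1 round, labelled and hybridised to single-colour Agilent arrays, 1 array a sort. The deposited scanner files (Agilent Feature Extraction 10.7.3.1, per the labels) hold the intensity of each feature after background subtraction by the authors' scanner software, with its raw and background intensity and quality flags. The series matrix deposited by the authors holds rounded intensity after quantile normalisation, a 75th percentile of 1500 and a floor of 20. It was used as an alternative.

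Probe values were rebuilt for 39429 probes as the geometric mean of 4 features, leaving out outlier flags, features beyond 1.42 interquartile ranges and pixel variation above 0.5. They were normalised, scaled and floored in the authors' way and taken to log2. A probe was detected where 3 of its 4 features were well above background. Tested were 18698 probes detected on all arrays of at least 1 pLN cell type. For the tissue difference 22146 were tested.

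limma 3.58.1 in R 4.3.3 (lmFit, eBayes, two-sided, Benjamini-Hochberg) was fitted to all 20 arrays with cell type within tissue and slide as a fixed block, leaving 9 residual degrees of freedom. Slides, read from the file headers, pair the TFR and TFH arrays: deviations from the group means correlated at 0.652 to 0.719 within slides and -0.546 to 0.0148 across them. Deviations from a group's own mean cancel over its slides. With positive correlations within slides, those across slides are therefore in part bound to be negative. Replicates are independent experiments per the series design, each a pool of mice. The fit was tested on simulated data. The simulated noise was normal and no floor was applied. Of changes with a true log2 size of 1, it called 52% for the pLN difference, 40% for the tissue difference and 24% for the day difference. A call needs an estimated size of at least 1, so these shares reflect that threshold as well as the precision. At a size of 2 it called 94%, 84% and 82%. Small changes between the days or tissues could thus go uncalled.

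Gene lists and named genes were chosen with earlier results of these data known. Named were the 10 largest calls in each direction with 1 sign on all slides, 28 set genes, the 4 largest calls of each list and the 3 largest in each direction of the day and tissue tests. Other list members were named after their values were seen. A list counts 1 probe a gene, the brightest tested. Of the 3277 genes with several tested probes, 122 had called and uncalled ones. Symbols came from RefSeq by accession for 27592 probes, and probe positions are those of the array annotation (mm9). The methods' F test across groups and the GL7- TFH arrays were not used for results here. Alternatives covered normalisation, background, floor, filter, block, arrays entering the fit and each left-out array.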

Additional observations from a re-analysis of the deposited data

Results flagged for a closer look

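The TFR minus TFH difference differed between PP and pLN, by limma's test of the difference itself, for 26 of the named genes. Over all tested probes the share was 3.28%. Some of the 26 were named because of this same test, and others because their pLN difference, a part of the test, was among the largest. Their number therefore cannot be set against that share. The values below are PP minus pLN on the log2 scale, from 2 PP and 3 pLN slides. More positive in PP were Art2a, an ADP-ribosyltransferase of the T cell surface (6.37, adjusted p = 0.000421), Trf, which encodes transferrin (5.24, adjusted p = 0.00885), Sostdc1 (5.21 and 5.19 at its 2 probes) and Ascl2 (4.12). Il21 (2.98), Bcl6 (1.96), Cxcr5 (1.86), Pdcd1 (1.71), Tox2 (1.49) and Sh2d1a (1.00, adjusted p = 0.0276) were more positive too, as were Apoc4 (3.70), Fam71b (3.22), Il1r1 (3.18), H2-Q1 (2.87), Padi4 (2.37), S1pr2 (2.22), Fst (1.88), Ccr8 (1.32), Dusp6 (1.31) and Pfkp (1.05). More negative in PP were Smoc2, a matrix protein gene (-4.19, adjusted p = 0.000925), Dnah7a at a dim probe (-3.91, against -2.16 and not called, adjusted p = 0.163, at the brighter probe described above), Kcnj15, a potassium channel gene (-3.63, adjusted p = 0.000124), Cxcr3 (-2.71), Ifng (-2.48) and Vegfc (-2.01).

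The Art2a difference had opposite signs in the tissues, but its PP difference of 1.58 ± 0.51 was not called (limma adjusted p = 0.063). Art2a read 57.9, 69.2 and 189 in pLN TFR and 3928, 1212 and 3395 in pLN TFH cells. In PP it read 1920 and 4162 in TFR and 984 and 908 in TFH cells. Trf read 308, 279 and 364 in pLN TFR and 890, 187 and 163 in pLN TFH cells, where the high value is that of the slide 1 array, and 2308 and 5159 in PP TFR against 86.2 and 88.5 in PP TFH cells. Smoc2 was not well above background on any of the 6 pLN arrays and was therefore not tested there, while PP TFH cells read 599 and 989. Of these 26 genes, 7 were called under every alternative run (Art2a, Sostdc1, Ascl2, Smoc2, Dnah7a at the dim probe, Kcnj15 and Fam71b). The call was lost under 1 of 19 alternatives for S1pr2 and Ccr8 (both without the replicate block), 2 for Pdcd1, 3 for Trf, Il21, Ifng and Padi4, 4 for Bcl6, Tox2 and Cxcr5, 5 for Pfkp, 9 for Dusp6, 10 for Cxcr3 and 13 for Sh2d1a. It was lost under 3 of 18 for H2-Q1, 5 for Il1r1, 7 for Vegfc, 11 for Fst and 13 for Apoc4. For 16 of these 19 genes, all but S1pr2, Ccr8 and H2-Q1, leaving out at least 1 of the PP arrays was among the alternatives that lost the call. The difference between the days was called for Pid1 (1.70, adjusted p = 0.0321), where d25 is 1 slide and no TFH array was well above background.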

How the results depend on the processing

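The 1673 calls between pLN TFR and TFH cells became 1431 without the replicate block (all among the 1673), 1691 with slide as a random block, 1191 with normexp background correction, 1743 from the series matrix, 1700 without quantile normalisation and 1113 with probes detected on all compared arrays. An unpaired t-test, which leaves out the slides, gave 610 at the same threshold after Benjamini-Hochberg (4014 probes at an unadjusted p under 0.05). Leaving out each array in turn gave 1523 to 1833. Of 1672 recalculated differences of 77 named probes, 1565 kept their sign and side of the threshold, 95 lost the call, 2 gained it (both Ctla4) and 10 turned sign, all of uncalled values near 0. The unpaired t-test, Maf (9 alternatives), Il10 (9), Ttk (12), Uhrf1 (13) and Ifi44 (13) held most of the losses. Those that turned sign were Icos (0.0089 without quantile normalisation, 0.048 without slide 1), Ifng (-0.31 to 0.0096 over left-out arrays) and Trf (-0.011 with normexp, -0.48 with d12 arrays only or without slide 3, -0.19 without slide 2, -0.65 to 0.61 over left-out arrays). Within slide 1 Ctla4 was -0.26 and Trf -1.53, and within slide 2 Icos was 0.34.

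The tissue difference depended more on the processing: its 727 calls became 243 without the replicate block, 465 with no filter, 417 with probes detected on all compared arrays, 378 with the compared groups only and 403 to 803 over left-out arrays. Among named probes not called in the main fit, 12 recalculated tissue differences gained a call: those of Tbx21 (6 alternatives), Il4 (3), Lrrc32 (2) and Gzmb (1). Uncalled tissue differences that turned sign were those of Icos (-0.13 without quantile normalisation), Prdm1 (-0.040 with normexp) and, over left-out arrays, Foxp3 (-0.60 to 0.14), Il2ra (-0.44 to 0.31), Ikzf2 (-0.39 to 0.28), Icos (-0.083 to 0.38) and Klf2 (-1.12 to 0.30). The day difference gave 0 calls without the replicate block, from the series matrix and without quantile normalisation (115, 1178 and 1424 at an unadjusted p under 0.05), 60 with no filter and 0 to 3 over left-out arrays. With all tested probes of their genes, 6.9% of replication and 18.2% of myeloid and dendritic cell probes were called. In an alternative chosen after seeing the data, without the TFH array of slide 1, 0% of replication, 22.2% of B cell and 50.0% of epithelial genes were called, and every other list kept a share within 1.5 times its own. The cause of these changes was not tested. Signal over background limits what is seen below the lowest detected intensity of an array, 20 to 104 on these 6.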
